A study of Mus musculus with 6 samples.

Results

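The AP-1 and immediate-early transcription factors described here are 9 genes of the 17204 measured: Jun, Junb and Jund of the Jun family, Fos, Fosb, Fosl1 and Fosl2 of the Fos family, Atf3 and Egr1. They were taken as a fixed list of Ensembl identifiers paired with symbols, by a rule that names the genes and sets no condition on their measured values, and all 9 had a value on every array. AP-1 is a dimer of basic leucine zipper proteins. Jun proteins pair with each other or with Fos proteins, whereas Fos proteins need a Jun partner, and the dimer binds the short element known as the TRE, which is named after the phorbol ester TPA. Many of these genes are immediate-early genes, which are transcribed within minutes of serum, growth factors, adhesion or stress without the need for new protein, and whose transcripts are mostly short-lived. In squamous epithelium AP-1 is known for its part in keratinocyte proliferation, differentiation and skin tumour promotion.

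Focal adhesion kinase (FAK) is a tyrosine kinase at sites of integrin adhesion, and the study asked which transcripts depend on it in squamous cell carcinoma (SCC) cells. The cells came from skin tumours of K14CreER FAKflox/flox mice of the FVB strain, in which keratin 14 promoter-driven Cre is activated by tamoxifen. The tumours had been induced with DMBA and TPA. Both lines descend from 1 clone and carry the fak deletion. SCC FAK-/- is that clone, which came from tumour cells exposed to 4-hydroxytamoxifen in culture. SCC FAK-WT is the same clone with wild-type FAK put back by a retrovirus. RNA of 3 biological replicates of SCC FAK-WT and 3 of SCC FAK-/- was hybridized to 6 Affymetrix mouse arrays. Both lines were grown in 10% serum and washed in cold saline before lysis, and no serum starvation or stimulation is described, so the values are those of growing cultures. The labels give selection in 0.25 mg/ml hygromycin for lines that re-express FAK, while the wording of the methods does not limit it to them. The retrovirus and, if the labels hold, the drug come with FAK re-expression, and their parts cannot be told apart. The expression of fak itself and of epithelial markers was not analysed here, since symbols were at hand for these 9 identifiers only.

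None of the 9 genes passed either threshold used in the comparison of the lines. Expression is given as log2 values after Robust Multi-array Average (RMA) normalization, and differences are SCC FAK-WT minus SCC FAK-/-, tested over all genes with limma, two-sided, with Benjamini-Hochberg adjustment. At an adjusted p under 0.05, 0 of 9 genes were called, where 1.92% of all genes were. At an unadjusted p under 0.01, the threshold given in the methods, 0 of 9 were called, against 6.85% of all genes. At an unadjusted p under 0.05, 1 of 9 passed, which was Jun, against 15.5% of all genes. The same 1 gene passed that level in an ordinary linear model without moderated variances. Jun was also the 1 gene of the 9 whose cell lines did not overlap, being lower on every SCC FAK-WT array, where 10.0% of all genes were lower without overlap. The fitted difference was below 0 for 7 of the 9 genes, against 46.7% of all genes, and this count was 6 to 8 under the alternatives (6 of the 8 genes left by the filter on dim genes). The median difference over the 9 genes was -0.096, beside 0.016 over all genes, and the median size of the difference was 0.11, beside 0.14 over all genes. With 9 genes a share near the background would give few or no calls, so the counts of calls do not set the group apart from other genes. Whether the 7 of 9 genes below 0 differ from the share of all genes was not tested.

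**Figure D1:**
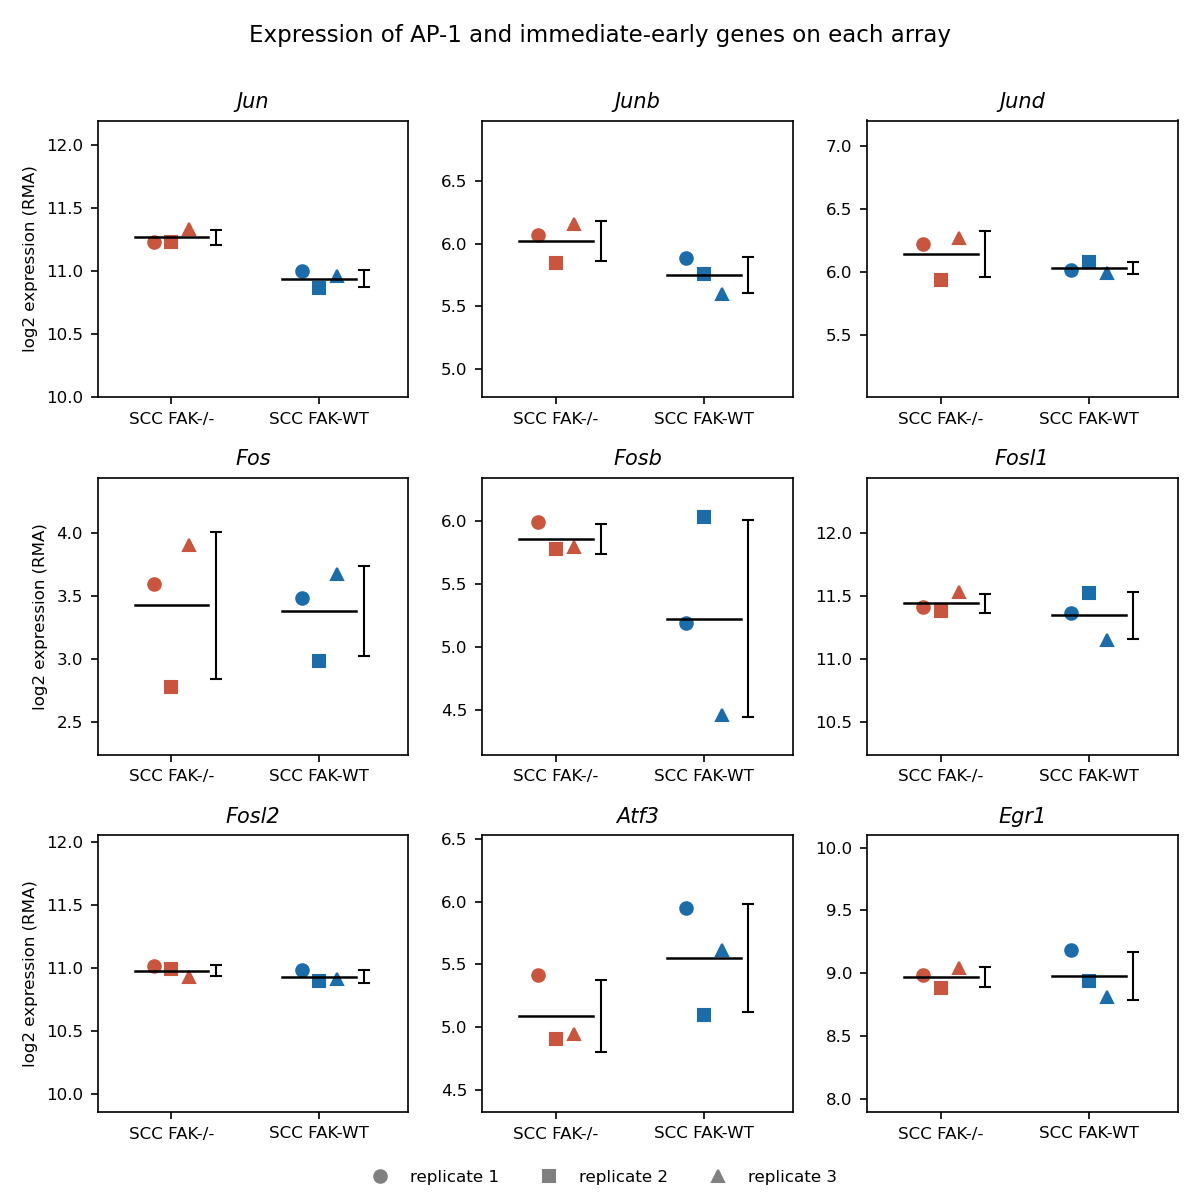
Log2 expression (RMA) of the 9 genes on each of the 6 arrays, with SCC FAK-/- in red and SCC FAK-WT in blue, symbols for the replicate number, a line at each mean and a bar for 1 SD (n = 3). Every vertical axis spans the same number of log2 units; Jun shows no overlap between the cell lines, whereas Fos and Fosb spread widely within a line.

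Among the Jun family, Jun (ENSMUSG00000052684) encodes c-Jun, the strongest transcriptional activator of the family and a substrate of the JNK kinases. SCC FAK-WT replicates 1 to 3 had log2 expression of 10.998, 10.861 and 10.961, and SCC FAK-/- replicates 1 to 3 had 11.234, 11.234 and 11.332. All 3 SCC FAK-WT values lay below the lowest SCC FAK-/- value. The means were 10.94 ± 0.071 (SD, n = 3) and 11.27 ± 0.057 (SD, n = 3), a difference of -0.33 with a standard error of 0.096 and a 95% interval from -0.55 to -0.10. On the linear scale SCC FAK-WT cells had 79.8% of the SCC FAK-/- signal, with an interval from 68.2% to 93.3%. This difference is larger than the spread between replicates of either line, yet it did not pass the adjustment over all genes (limma, unadjusted p = 0.0111, adjusted p = 0.154), and Jun ranked 1240 of all 17204 genes by p. When the variance prior was allowed to follow the expression level and fitted robustly, the same difference had a limma adjusted p of 0.0328. Over the 14 alternatives that give a difference, the adjusted p ranged from 0.0328 to 0.328, the difference ranged from -0.37 to -0.29, and that setting was the only one to bring Jun under 0.05. In a culture, less RNA in every cell and fewer cells with the RNA cannot be told apart, here and for the genes that follow.

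Junb (ENSMUSG00000052837) encodes a partner of Fos proteins that can oppose c-Jun on some promoters. In the same order, its log2 values were 5.89, 5.76 and 5.60 with FAK and 6.07, 5.85 and 6.16 without. The lines overlapped through SCC FAK-WT replicate 1 and SCC FAK-/- replicate 2. The difference was -0.27 with a standard error of 0.13 (limma, 95% interval from -0.57 to 0.025, adjusted p = 0.367). Jund (ENSMUSG00000071076) encodes the Jun protein that is typically the most steadily expressed in resting cells. It measured 6.02, 6.08 and 5.99 in SCC FAK-WT, and 6.22, 5.94 and 6.27 in SCC FAK-/- cells, so that the lowest and the highest values were both from SCC FAK-/- cells. The difference of -0.11 had a 95% interval from -0.39 to 0.17 (limma, adjusted p = 0.735), and it was -0.22 without SCC FAK-/- replicate 2 and -0.051 without SCC FAK-/- replicate 3. The differences of Jun, Junb and Jund were thus all below 0, and each kept that sign under the 14 alternatives. With all 6 arrays, Jun alone of the 3 had an interval that left out 0. Junb passed an unadjusted 0.05 in 2 of the fits that leave out an array, at -0.34 without SCC FAK-WT replicate 1 (unadjusted p = 0.0491, limma adjusted p = 0.336) and at -0.36 without SCC FAK-/- replicate 2 (unadjusted p = 0.0336, limma adjusted p = 0.332).

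The Fos family gave the most and the least variable genes of the list. Fosl2 (ENSMUSG00000029135) encodes Fra-2, and its log2 expression was 10.99, 10.90 and 10.91 in SCC FAK-WT cells and 11.01, 10.99 and 10.93 in SCC FAK-/- cells. The arrays were nearly level, with a residual SD of 0.047 within lines, where the median gene had 0.17. The difference was -0.048, and its 95% interval, from -0.27 to 0.17, corresponds to 83.2% to 112.5% of the SCC FAK-/- signal (limma, adjusted p = 0.874). It ranged from -0.094 with quantile normalization to -0.015 with each array centred on its median, and from -0.076 to -0.030 with an array left out. Fosl1 (ENSMUSG00000024912) encodes Fra-1, a Fos protein that lacks a strong activation domain and is itself a target of AP-1. Log2 values of Fosl1 were 11.36, 11.52 and 11.15 in SCC FAK-WT cells and 11.41, 11.38 and 11.53 in SCC FAK-/- cells. SCC FAK-WT replicate 3 was the lowest array and the other 5 lay between 11.36 and 11.53. The difference was -0.096, with a 95% interval from -0.39 to 0.19 (limma, adjusted p = 0.793), and without that array it was 0.0020.

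Fos (ENSMUSG00000021250) encodes c-Fos, the classical immediate-early gene. The arrays gave 3.48, 2.98 and 3.68 in SCC FAK-WT cells and 3.60, 2.78 and 3.91 in SCC FAK-/- cells. Replicate 2 was the lowest array in each line, and the lines overlapped fully. These values lay between the 8.64th and the 24.5th percentile of the values on their arrays, where RMA signals are close to background and differences may be understated. The difference was -0.045 with a 95% interval from -0.76 to 0.67, or 58.9% to 160% of the SCC FAK-/- signal (limma, adjusted p = 0.968). Its sign was not stable: it was above 0 under 4 of 13 alternatives. These were array weights and the fits without SCC FAK-WT replicate 2, SCC FAK-/- replicate 1 or SCC FAK-/- replicate 3.

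Fosb (ENSMUSG00000003545) encodes FosB and, by alternative splicing, the shorter and more stable ΔFosB, which a value per gene does not separate. Fosb expression was 5.19, 6.03 and 4.46 in SCC FAK-WT cells and 5.99, 5.78 and 5.79 in SCC FAK-/- cells. The SCC FAK-/- arrays lay together, whereas the SCC FAK-WT arrays held both the highest and the lowest value. The means were 5.22 ± 0.79 (SD, n = 3) and 5.85 ± 0.12 (SD, n = 3). The difference of -0.63, the largest of the 9 in size, had a 95% interval from -1.46 to 0.19 and was within the spread of the SCC FAK-WT replicates (limma, adjusted p = 0.464). It rested on single arrays. Without SCC FAK-WT replicate 2 it was -1.03 (unadjusted p = 0.00308, limma adjusted p = 0.113), and without SCC FAK-WT replicate 3 it was -0.25 (limma adjusted p = 0.745). Over all alternatives the adjusted p was 0.113 to 0.745.

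**Figure D2:**
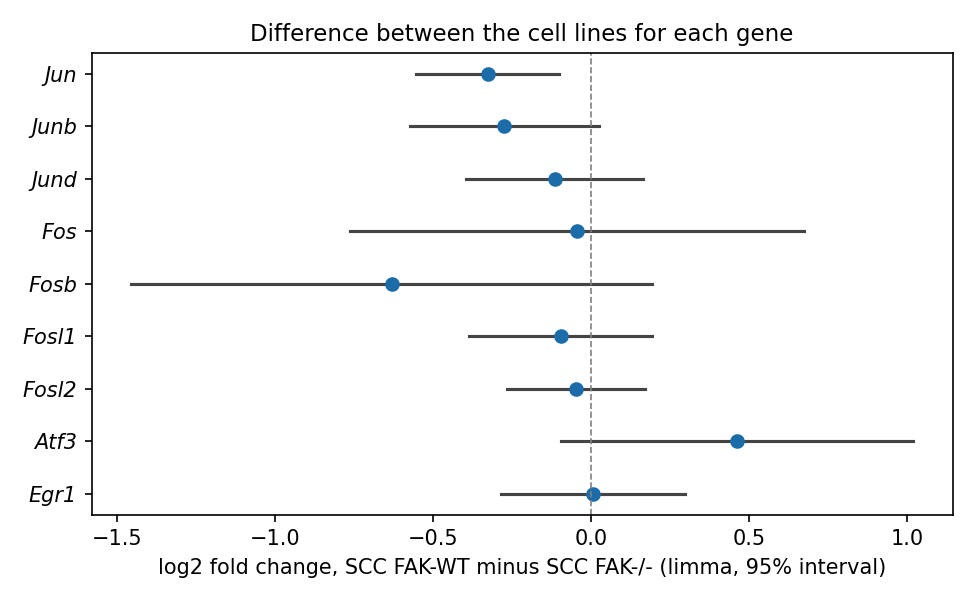
Log2 expression in SCC FAK-WT minus that in SCC FAK-/- cells for each of the 9 genes (points) with its 95% interval from limma (bars, n = 3 per line), where values below 0 mean lower in SCC FAK-WT. Jun alone has an interval that leaves out 0, from -0.55 to -0.10, before adjustment for the number of genes tested, and Fosb, Fos and Atf3 have the widest.

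Atf3 (ENSMUSG00000026628) encodes a stress-induced member of the ATF/CREB family that can dimerize with Jun proteins and often represses transcription. Its log2 values were 5.95, 5.10 and 5.61 in SCC FAK-WT cells and 5.42, 4.91 and 4.94 in SCC FAK-/- cells. The 2 highest arrays were SCC FAK-WT and the 2 lowest SCC FAK-/-, and the lines overlapped through SCC FAK-WT replicate 2 and SCC FAK-/- replicate 1. The means were 5.55 ± 0.43 (SD, n = 3) and 5.09 ± 0.29 (SD, n = 3). The difference was 0.46, or 1.38-fold, with a standard error of 0.24 and a 95% interval from 0.936-fold to 2.03-fold (limma, unadjusted p = 0.0911, adjusted p = 0.420). It was 0.26 without SCC FAK-WT replicate 1 and 0.69 without SCC FAK-WT replicate 2, with limma adjusted p values of 0.677 and 0.192.

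Egr1 (ENSMUSG00000038418) encodes a zinc finger factor outside the AP-1 family that is induced through ERK and serum response factor alongside Fos. Egr1 expression was 9.18, 8.94 and 8.81 in SCC FAK-WT cells and 8.98, 8.89 and 9.04 in SCC FAK-/- cells. The SCC FAK-/- arrays lay inside the range of the SCC FAK-WT arrays. The difference was 0.0071, and its 95% interval from -0.28 to 0.30 corresponds to 82.1% to 123% of the SCC FAK-/- signal (limma, adjusted p = 0.989). Its sign was below 0 under 4 of 14 alternatives.

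The intervals show how much these arrays could resolve for each gene. For 6 of the 9, Jun, Junb, Jund, Fosl1, Fosl2 and Egr1, the 95% interval lay inside a 1.5-fold difference in either direction. For the other 3, Fos, Fosb and Atf3, it reached beyond 1.5-fold. These 3 also had the largest residual SD within lines, at 0.48, 0.56 and 0.36, which placed them at the 96.1th, 97.6th and 90.8th percentile of all genes. Jun had a residual SD of 0.064, and Fosl2 was at the 2.30th percentile.

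Each gene was next set against its own line's mean on each array, as a description with no test. The 3 deviations of a gene in a line sum to 0, so the counts on the arrays of a line depend on each other. Among SCC FAK-/- arrays, 8 of the 9 genes were below the line mean on replicate 2, where 46.1% of all genes were, and 7 and 6 of the 9 were above it on replicates 1 and 3, where 52.5% and 42.9% of all genes were. Fos was the farthest below on replicate 2, at -0.65, and Fosl2 was the 1 gene above, at 0.014. Among SCC FAK-WT arrays, 7, 4 and 3 of the 9 were above the line mean on replicates 1 to 3, against 55.4%, 44.5% and 48.4% of all genes. The widest deviations in that line were those of Fosb, at 0.80 on replicate 2 and -0.77 on replicate 3.

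Likeness of pattern was measured as the Euclidean distance between gene-centred log2 values over the 6 arrays, for the 3 genes of largest difference. The identifiers nearest to Jun were ENSMUSG00000026674 and ENSMUSG00000021693, at distances of 0.068 and 0.074, beside 0.42 for the distance of Jun's own pattern from a flat one. Those nearest to Atf3 were ENSMUSG00000042854 and ENSMUSG00000044229, at 0.17 and 0.18, beside 0.92 for Atf3 itself. The nearest to Fosb lay at 0.21, beside 1.36. None of these identifiers was at an adjusted p under 0.05, and they are not paired with symbols here.

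RefSeq promoter windows on GRCm38.p6, from 250 bases before to 50 after the annotated start, were used for 7 of the 9 genes. They were paired with the genes by symbol. Fosl1 and Egr1 were not in the search, and for Egr1 this need not mean that no window carried its symbol. The counts out of 7 below depend on this choice of windows. The windows were searched on both strands for elements that AP-1, CREB/ATF, serum response factor and EGR proteins are known to bind. The TRE (TGANTCA) was in 0 of the 7 windows and in 7.81% of all 32851 windows of the table. The full CRE (TGACGTCA) was in 0 of 7 and in 1.79% of all, and the CArG box in 0 of 7 and 1.63% of all. Sequence farther than 250 bases before the start was not searched, nor was any of Fosl1 or Egr1. A count of 0 of 7 therefore does not show that these genes lack an element. The EGR motif (GCGNGGGCG) was in 2 of 7, Fosb and Fosl2, and in 5.55% of all. After these searches 2 more elements were looked for: TGACATCA, the variant TRE for which Jun is known, was in the Jun window and in 3.62% of all, and TGACG, the CRE core, which is also part of the full CRE, was in Junb, Fos, Fosb and Atf3 and in 20.8% of all. These matches are descriptions of the sequence and no binding was measured. The 100 bases before the start are printed for Jun, the gene whose lines did not overlap, and for Fosb, Fos and Atf3, the genes with the widest intervals, 5′ to 3′ on the strand of the gene, with every match to a searched element in capitals.
Jun, chr4:95052223-95052322, minus strand: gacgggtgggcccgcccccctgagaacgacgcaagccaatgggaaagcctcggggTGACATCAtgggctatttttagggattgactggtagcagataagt
Fosb, chr7:19310046-19310145, minus strand: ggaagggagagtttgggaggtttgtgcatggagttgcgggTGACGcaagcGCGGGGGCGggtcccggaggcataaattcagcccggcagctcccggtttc
Fos, chr12:85473790-85473889, plus strand: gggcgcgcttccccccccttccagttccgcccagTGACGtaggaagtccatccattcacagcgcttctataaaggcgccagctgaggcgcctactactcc
Atf3, chr1:191183334-191183433, minus strand: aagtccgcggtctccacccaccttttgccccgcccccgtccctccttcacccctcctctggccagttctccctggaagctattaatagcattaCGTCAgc
In Jun the element lay 45 to 38 bases before the start. In Fosb the CRE core lay 60 to 56 bases before it and the EGR motif 50 to 42. In Fos a CRE core lay 66 to 62 bases before the start, and another, outside the printed stretch, at 129 to 125. In Atf3 the core was on the opposite strand, 7 to 3 bases before the start. TGACATCA was looked for as an element already known in Jun, so its match there was likely from the start, and no contrast with the other 3 genes is drawn from it. The set is also too small for a comparison with the differences in expression.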

How the data were processed

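RNA from 6 cultures was hybridized to GeneChip Mouse Genome arrays, 1 array per culture. The authors made 1 value per Ensembl gene identifier and array from the probes, using RMA from the affy package, and the deposited values are taken as log2 from their range (1.34 to 13.76), since no scale is stated. The probe mapping, genome build and package version are not given in the sources used here. RMA equalizes arrays and compresses differences near background. Arrays have no read depth, and 3 arrays per line limit the precision.

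All 17204 genes were fitted, with no filter, using limma (version 3.58.1, under R 4.3.3) through lmFit and eBayes, with cell line as the only term, and p-values were adjusted over all genes. The fit was tested on simulated data. Alternatives were other moderation, further scalings, array weights, a filter on dim genes, a replicate block, leaving out each array and a minimum change of 1.5-fold. The members, lists and tests were chosen with earlier results of these data known, although the rule for the members sets no condition on measured values. The named genes are all 9 members, and the 2 nearest patterns of the 3 members with the largest difference, of which 4 identifiers are printed. Lists of AP-1 partners, other immediate-early genes, upstream kinases, AP-1 targets, stress genes and cell type markers were not analysed here, because the symbols could not be paired with the identifiers. Same-numbered arrays deviated from their line's mean with correlations of -0.034 to 0.028 across genes. These values gave no sign of a shared effect over all genes, but they cannot decide it for single genes. The numbers are not said to mark a shared day, so the replicate block was kept as an alternative.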

Additional observations from a re-analysis of the deposited data

How the results depend on the processing

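The count of called genes among the 9 moved only through Jun and Fosb. At an adjusted p under 0.05 it went from 0 to 1 lower when the variance prior followed the level and was fitted robustly (Jun), and at an unadjusted p under 0.01 from 0 to 1 lower with that setting, with no moderation, with quantile normalization and with cyclic loess (Jun in each). With an array left out it was 0 to 1 at that level, the 1 being Fosb without SCC FAK-WT replicate 2. No gene of the 9 was called higher under any alternative at either level (limma, 0 of 9); Atf3 passed an unadjusted 0.05 in 3 of them, of which the replicate block is 1. Junb passed it in 2, each with an array left out. With the replicate block, 0 of 9 were called at either level, and Atf3 had the same difference of 0.46 with an adjusted p of 0.224. Among all genes, 330 at an adjusted p under 0.05 became 549 with that robust prior, 39 with no moderation, 160 with the replicate block and 108 to 188 with an array left out; the cause was not tested, other than fewer arrays in the last. At an unadjusted p under 0.01, 1179 became 655 with a minimum change of 1.5-fold, a stricter rule by construction.

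The sign turned for Fos with array weights (0.058), without SCC FAK-WT replicate 2 (0.15), without SCC FAK-/- replicate 1 (0.040) and without SCC FAK-/- replicate 3 (0.19). It turned for Fosl1 without SCC FAK-WT replicate 3 (0.0020). It turned for Egr1 with quantile normalization (-0.024), cyclic loess (-0.021), without SCC FAK-WT replicate 1 (-0.095) and without SCC FAK-/- replicate 2 (-0.035). With an array left out, the differences ranged from -0.37 to 0.19 for Fos, from -0.18 to 0.0020 for Fosl1 and from -0.095 to 0.090 for Egr1. Each of these had an adjusted p of at least 0.562 (Fos), 0.564 (Fosl1) or 0.794 (Egr1) in every setting, the cause was not tested, and the other 6 genes kept their sign. The filter on dim genes removed Fos, which has no value there. Centring each array moved the median of all genes from 0.016 to 0.048. The alternatives for the lists without symbols were not run.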
